A study of Danio rerio with 2 samples.

Results

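The apolipoprotein genes of zebrafish were followed in 2 RNA sequencing libraries of adult wild-type gonads, 1 from testis and 1 from ovary. The members are apoeb, apoea, apoc1, apoc2, apoa1a, apoa1b, apoa2 and apobb.1. They were chosen by name, as the rows whose Ensembl identifier carries one of these 8 symbols, and all 8 were found, each on a single identifier, among 24539 genes. Each library pooled the gonads of 3 adults with the genotype given as WT. The labels name no strain, age beyond adult, or treatment. The organs were frozen on dry ice and their RNA was extracted with Trizol. The study, by its title, compares the organs to find sex-biased genes and pathways. The values are FPKM, fragments scaled to gene length and to the size of the library. Since gene length is taken out, levels of different genes can be set side by side, and each is a share of its own library.

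Apolipoproteins are the protein coat of lipoproteins, the particles that carry cholesterol, triglyceride and phospholipid between tissues. ApoB forms the scaffold of the large triglyceride-rich particles, apoA-I and apoA-II are the main coat proteins of high-density lipoprotein, and apoE binds receptors of the LDL receptor family. The small apoC proteins move between particles and tune their breakdown. Liver and intestine make most of them, apoE is also made by macrophages and glia, and in zebrafish embryos the yolk syncytial layer secretes several. In the gonads, lipoproteins bring cholesterol for steroid synthesis and lipid for the growing oocyte.

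The apolipoprotein genes stood higher in testis than in ovary, and apoeb and apoc1 made up nearly all of their RNA. The 8 genes summed to 1017 FPKM in testis, 0.181% of that library, and to 20.9 FPKM in ovary, 0.00364%. Transcripts of apoeb and apoc1 formed 95.4% of this sum in testis and 94.8% in ovary. The coat genes of high-density lipoprotein, apoa1b, apoa2 and apoa1a, followed at 4.75 to 24.6 FPKM in testis and 0.15 to 0.33 FPKM in ovary. The genes apoea, apoc2 and apobb.1 stood at 0.35 to 1.24 FPKM in testis and 0.01 to 0.37 FPKM in ovary. Each of these values comes from a single library, so the differences are without replicates and carry no p-value. In whole organs, fewer cells of a type and less RNA per cell cannot be told apart.

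Differences were classed by size on the log2(FPKM + 1) scale, which understates the change of low genes. The call of a gene as higher in testis or ovary needed a log2 ratio of at least 1 in size (2-fold) and 1 FPKM in the higher library. Of the 8 members, 6 reached 1 FPKM, and 5 of these were called higher in testis, namely apoeb, apoc1, apoa1b, apoa2 and apoa1a. Among all 19053 genes that reached 1 FPKM, 45.1% were called higher in testis and 16.6% higher in ovary. When the median log2 ratio of all genes was set to 0, these shares were 25.1% and 30.3%, and the same 5 members were called higher in testis. The median log2 ratio of the 6 members was 4.06, against 0.80 for all genes at this level. The value in testis was above that in ovary for 8 of 8 members, as for 69.5% of all genes, but the log2 ratios of apoea, apoc2 and apobb.1 were negative once the overall median was subtracted.

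**Figure D1:**
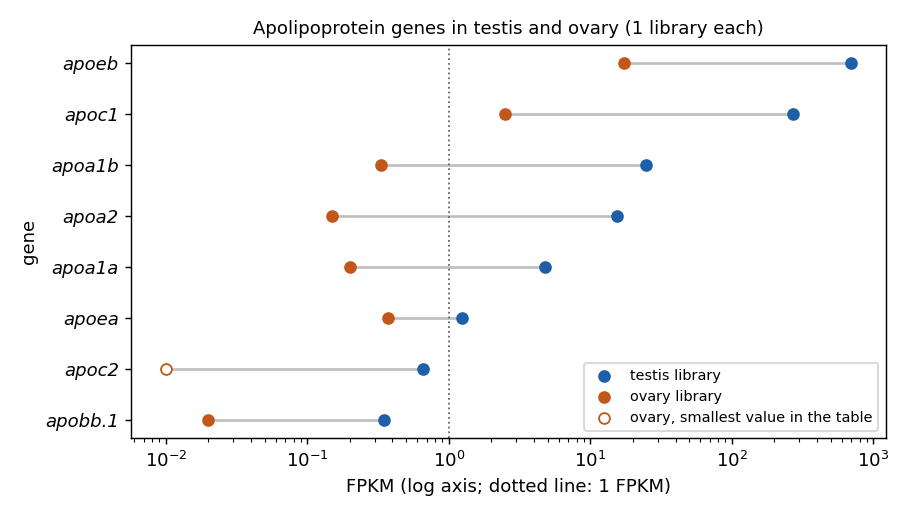
FPKM of the 8 apolipoprotein genes on a log axis, with 1 point for the testis library (blue) and 1 for the ovary library (orange) of each gene; the open point marks the smallest value in the table, 0.01 FPKM. The testis point lies to the right of the ovary point for every gene on the deposited scale, from 700.2 against 17.3 FPKM for apoeb to 0.35 against 0.02 FPKM for apobb.1; the log2 ratios of apoea, apoc2 and apobb.1 turn negative when the median ratio of all genes is set to 0.

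The apoE genes differed widely in level from each other. The receptor-binding apolipoprotein gene apoeb (ENSDARG00000040295) stood at 700.2 FPKM in testis and 17.3 FPKM in ovary. That is a plain ratio of 40.5 and a log2 ratio of 5.26. It placed apoeb at rank 81 of all genes in testis and rank 5552 in ovary. Its paralogue apoea (ENSDARG00000102004) stood at 1.24 FPKM in testis and 0.37 FPKM in ovary, a plain ratio of 3.35 but a log2 ratio of 0.71, so it was not called. The level of apoeb was 565 times that of apoea in testis and 46.7 times in ovary. In both organs the apoE transcripts were thus nearly all from apoeb.

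The apoC genes showed a similar gap. The gene apoc1 (ENSDARG00000092170), whose mammalian product inhibits lipoprotein uptake and lipid transfer, stood at 269 FPKM in testis and 2.49 FPKM in ovary. Its plain ratio of 108 and log2 ratio of 6.28 were the highest among the members, and only 0.588% of the genes at 1 FPKM or more had a larger log2 ratio. The gene apoc2 (ENSDARG00000092155), which encodes the activator of lipoprotein lipase, stood at 0.66 FPKM in testis and was listed at the smallest value, 0.01 FPKM, in ovary. It did not reach 1 FPKM and no fold is given. In testis apoc1 stood at 408 times the level of apoc2. The level of apoeb was 2.60 times that of apoc1 in testis and 6.94 times in ovary, and the apoeb share of the summed members was 68.9% in testis and 82.9% in ovary.

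The high-density lipoprotein genes were lower in level but had plain ratios of the same order. The apoA-I gene apoa1b (ENSDARG00000101324) stood at 24.6 FPKM in testis and 0.33 FPKM in ovary, a plain ratio of 74.5. The apoA-II gene apoa2 (ENSDARG00000015866) stood at 15.5 and 0.15 FPKM, a plain ratio of 104. Rounding of the deposited values to 2 decimals alone leaves that ratio between 100.2 and 107, a range that holds no counting error. The second apoA-I gene, apoa1a (ENSDARG00000012076), stood at 4.75 and 0.2 FPKM, a plain ratio of 23.8. Their log2 ratios were 4.27, 3.85 and 2.26. With ovary values of only 0.15 to 0.33 FPKM and unknown depth, the counting error of these plain ratios is unknown. The level of apoa1b was 5.18 times that of apoa1a in testis and 1.65 times in ovary, where both were under 1 FPKM. Together the 3 genes made up 4.41% of the summed members in testis and 3.26% in ovary.

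The gene of the particle scaffold, apobb.1 (ENSDARG00000022767), was the lowest member in testis, at 0.35 FPKM against 0.02 FPKM in ovary. It did not reach 1 FPKM in either library. Its plain ratio of 17.5 could lie anywhere from 13.8 to 23.7 from rounding alone. The related apobb.2 stood at 0.1 FPKM in testis and at the smallest value in ovary. A single identifier with the human-style symbol APOB (ENSDARG00000042780, chosen after its values were seen) stood at 0.60 and 0.04 FPKM. No apoB gene listed here therefore reached 1 FPKM in either organ.

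Large ratios were common among genes at the testis levels of the members. Of the 861 genes from 100 to below 1000 FPKM in testis, 63.4% were called higher in testis and 30.3% had at least 10 times the ovary value, with a value at the smallest listed taken as it stands. Both apoeb and apoc1 did so. Of the 7793 genes from 10 to below 100 FPKM, which include apoa1b and apoa2, 20.8% had a ratio of 10 or more. Of the 9614 genes from 1 to below 10 FPKM, which include apoa1a and apoea, 34.3% did. These bins are set on the testis value alone, so they describe how common such ratios are and do not place the members.

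**Figure D2:**
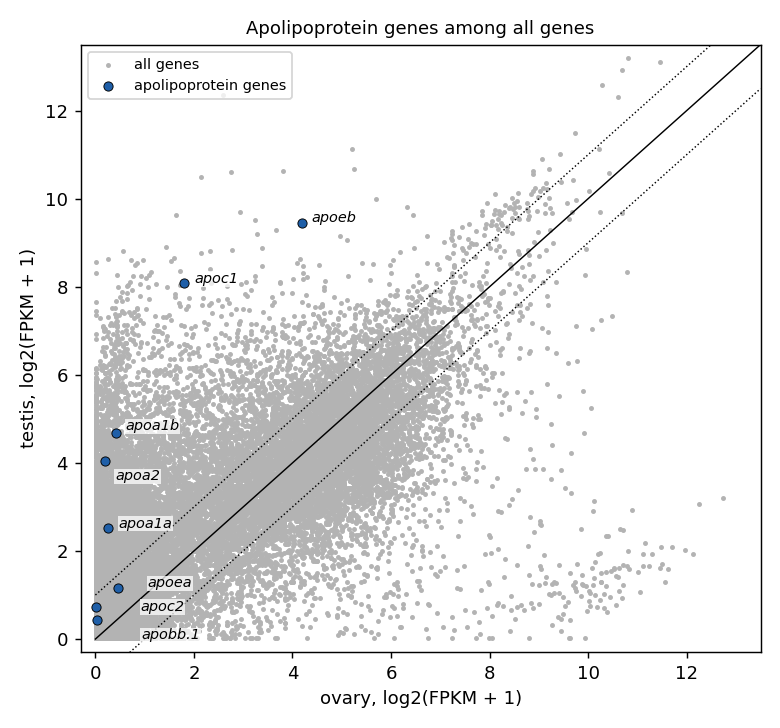
Level of every gene in ovary (x axis) and testis (y axis), both as log2(FPKM + 1), with the 8 apolipoprotein genes as labelled blue points; the solid line marks equal levels and the dotted lines 2-fold. On the deposited scale 5 of the 8 genes lie above the upper dotted line, while apoea, with a log2 ratio of 0.71, and the low apoc2 and apobb.1 lie between the dotted lines, and those 3 fall below equality when the overall median ratio is subtracted.

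Of the 8 members, 4 (apoeb, apoc1, apoa2 and apoc2) sit in 1 cluster in the genome, and within it the levels varied widely. In the RefSeq gene table of the assembly GRCz12tu, used only for gene order because it is not the build of the files, apoa4b.1, apoa4b.3, apoa4b.2, apoeb, apoc1, apoc4, apoa2 and apoc2 follow each other in this order, with 2 further protein-coding genes among them. In testis apoa4b.2 stood at 1.13 FPKM, apoeb at 700.2, apoc1 at 269, apoc4 at 0.2, apoa2 at 15.5 and apoc2 at 0.66 FPKM. The high pair apoeb and apoc1 are direct neighbours, and the genes to either side of the pair stood at 1.13 and 0.2 FPKM in testis. In ovary the same 6 genes read 0.32, 17.3, 2.49, 0.01, 0.15 and 0.01 FPKM. Beyond the cluster, gtpbp10 on one side had 7.58 FPKM in testis and 10.4 FPKM in ovary, while bcam on the other read 3.61 and 0.54. The gene apoa4b.3 was not analysed here. The paralogue apoea lies elsewhere, beside apoa4a (0.3 FPKM in testis and 0.11 in ovary), with tomm40l next to that (41.5 and 9.92 FPKM).

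**Figure D3:**
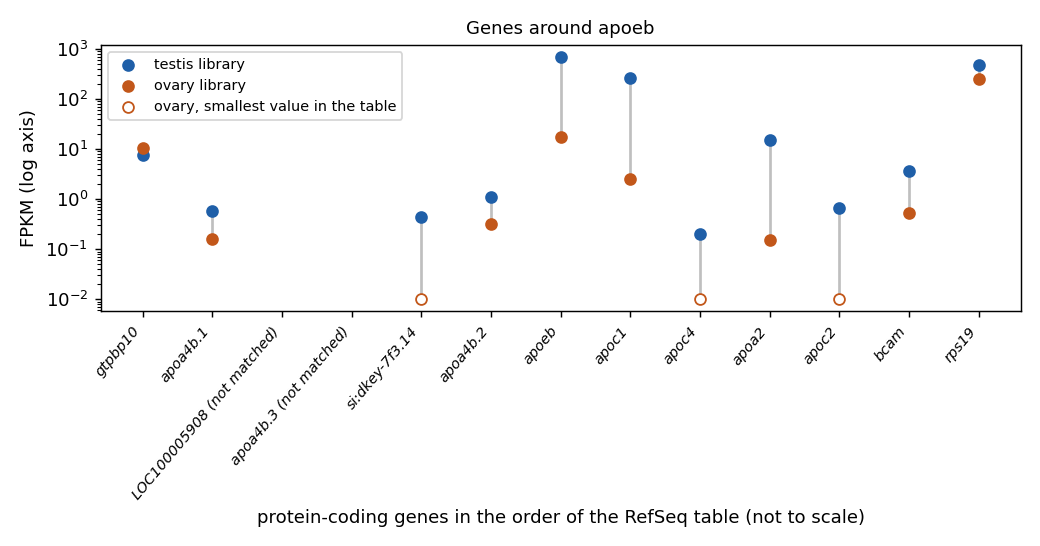
FPKM on a log axis for apoeb and its neighbouring protein-coding genes, in the order of the RefSeq table and not to scale, with testis in blue, ovary in orange and open points at the smallest listed value. The points of apoeb (700.2 and 17.3 FPKM) and apoc1 (269 and 2.49 FPKM) stand above those of the other apolipoprotein genes of the cluster in both libraries.

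The genes closest to the members in the plane of the 2 libraries came from several functions. Closeness was the straight-line distance in log2(FPKM + 1) of testis and ovary, and the 5 nearest genes with an informative symbol were taken for each of the 3 highest members. For apoeb these were HMGN2 (distance 0.55), 1 of 2 identifiers with the symbol TAGLN (0.82), H3-3B (0.83), ENKUR (0.93) and CALM2 (0.94), a chromatin protein, a smooth muscle protein, a histone, a sperm tail protein and calmodulin. For apoc1 they included dydc2 (0.09), dnaaf2, cfap210 and HSP90AA1, the last at 0.36, of which dnaaf2 and cfap210 carry names of cilium and flagellum genes. For apoa1b they were STK33 (0.03), PFKP, DNAH12, GPAT3 and RFLNA (0.09), with PFKP and GPAT3 each 1 of 2 identifiers of that symbol. With only 2 libraries, this closeness says that the levels were alike in both.

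Other genes with apolipoprotein names were lower than apoeb and apoc1 in testis, and did not share 1 direction. The list written for them gave 11 measured genes, of which 6 reached 1 FPKM. Of these 6, 3 were called higher in testis and 1 higher in ovary, beside 45.1% and 16.6% of all genes at this level. Transcripts of apol1 reached 7.03 FPKM in testis and 0.25 FPKM in ovary. The sphingosine-1-phosphate carrier gene apom read 3.60 and 0.13 FPKM, and apof read 3.53 and 0.19. The gene apool, whose mammalian product is a subunit of the mitochondrial MICOS complex rather than a plasma protein, was the one called higher in ovary, at 39.5 FPKM against 16.0 in testis. NAXE, found through the older name of an apoA-I binding protein, read 13.2 in testis and 25.4 in ovary. The intestinal type apoa4b.2 read 1.13 and 0.32 FPKM, and apoa4b.1, apoa4a, apoc4 and apoda.1 all stayed under 1 FPKM.

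Of the genes outside that list, chosen after their values were seen, those with the symbol APOD, a lipocalin that binds small hydrophobic molecules, went in opposite directions. One identifier (ENSDARG00000057437) had 16.9 FPKM in testis and 1 FPKM in ovary, whereas the other (ENSDARG00000060350) had 8.59 and 72.7 FPKM. The second was the highest apolipoprotein-named value in ovary, above apoeb at 17.3 FPKM. Both identifiers named APOO, another MICOS gene, were called higher in testis, at 50.8 against 10.9 FPKM and at 7.51 against 2.48 FPKM. The gene apol read 10.4 in testis and 14.7 in ovary.

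The genes that act on lipoproteins were called for each organ about as often as genes in general. A set of 7 lists was written for them, covering other apolipoproteins, particle assembly, plasma enzymes, receptors, efflux, transcription and sterol synthesis, and together they held 117 measured genes. Of these, 41 were called higher in testis, 14 higher in ovary, 35 were within 2-fold and 27 did not reach 1 FPKM. Of the 90 that reached it, 45.6% were called for testis and 15.6% for ovary, near the 45.1% and 16.6% of all genes. Single lists differed, with 12 called for testis and 0 for ovary of 18 regulators, and 2 for each organ of 9 assembly genes. The members' median of 4.06 was above the medians of all 7 lists, which ran from -0.28 for assembly to 1.60 for plasma enzymes; the members were picked with these data in view, so this is a description.

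Of 12 measured genes for assembling and secreting lipoproteins, 9 reached 1 FPKM. Of these 9, 2 were called for testis and 2 for ovary, beside 45.1% and 16.6% of all genes at this level. The median log2 ratio of the 9 was -0.28. The abundant ones serve secretion in general. The disulphide isomerase gene P4HB, also a subunit of the triglyceride transfer protein, had 36.5 FPKM in testis and 488 FPKM in ovary, and PDIA6 had 74.5 and 68.4. The coat GTPase gene sar1b read 45.8 and 55.9 FPKM, its relative sar1ab 2.89 and 19.7, and the cargo receptor gene mia2 16.3 and 32.2. The 2 called for testis, chosen after their values were seen, were the lipid esterification genes SOAT2 (3.15 FPKM) and DGAT2 (2.08 FPKM), both at the smallest value in ovary. MTTP, which loads lipid onto apoB and was chosen after its values were seen, was low in both, at 1.5 and 0.44 FPKM.

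Of 14 measured genes for lipases and transfer enzymes, 10 reached 1 FPKM. Of these 10, 6 were called for testis and 2 for ovary (median 1.60), beside 45.1% and 16.6% of all genes at this level. LCAT, which esterifies the cholesterol of high-density lipoprotein on activation by apoA-I, had 37.1 FPKM in testis and 0.08 FPKM in ovary. The phospholipase gene PLA2G7 read 16.3 and 10.7 FPKM. The endothelial lipase gene LIPG, whose product cleaves phospholipid of high-density lipoprotein, was higher in ovary, at 123 FPKM against 5.37. SEL1L, which is needed for lipase maturation, read 49.1 in ovary and 13.8 in testis. LPL, for the lipoprotein lipase that apoC-II activates, is carried by 2 identifiers and stayed out of the count. They stood, chosen after their values were seen, at 14.35 and 13.8 FPKM in testis and 0.79 and 1.29 FPKM in ovary, so both exceeded apoc2 (0.66 and 0.01 FPKM) in both organs.

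Receptors of apolipoproteins and their adaptors were called for both organs. Of 22 measured genes, 20 reached 1 FPKM. Of these 20, 7 were called for testis and 5 for ovary, beside 45.1% and 16.6% of all genes at this level. The median of the list was 0.78, and -0.0168 with the overall median set to 0. The high-density lipoprotein receptor gene SCARB1 had 617 FPKM in ovary and 20.2 FPKM in testis. The receptor gene lrp13 had 234 and 13.9 FPKM, and VLDLR, whose product takes up apoE- and vitellogenin-bearing particles, read 161 and 1.98. The adaptor gene ldlrap1a, which couples such receptors to clathrin, read 56.1 and 15.5 FPKM, and the scavenger receptor gene stab2 read 8.03 and 3.44. Chosen after its values were seen, ldlra, a gene for the LDL receptor, had 3.18 FPKM in testis and 0.39 FPKM in ovary. In the ovary library the 22 genes of this list summed to 1192 FPKM, most of it from SCARB1, lrp13 and VLDLR. The 8 members summed to 20.9 FPKM there. In testis the sums were 209 and 1017 FPKM. The list also holds adaptor genes such as ldlrap1a, so these sums do not set receptors against their ligands.

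The genes of cholesterol export and of sterol synthesis were mixed. Of 12 measured efflux genes, 8 reached 1 FPKM. Of these 8, 4 were called for testis and 1 for ovary, beside 45.1% and 16.6% of all genes at this level. The median of the efflux list was 0.74, and -0.0598 with the overall median set to 0. The ABCA1 gene, whose product loads cholesterol onto apoA-I, had 10.6 FPKM in testis and 0.48 FPKM in ovary, and abcg2a had 34.96 and 9.51. NPC1, for cholesterol exit from lysosomes, read 21.5 and 24.3 FPKM, and STARD3 was higher in ovary, at 16.1 against 6.69. Of 19 sterol synthesis genes, 7 were called for testis and 3 for ovary, beside the same 45.1% and 16.6% of all genes. The median of the sterol list was 0.51, and -0.29 or -0.19 after setting the overall median or a trimmed mean of ratios to 0. HMGCS1 read 54.9 and 49.2 FPKM in testis and ovary, FDPS 37.5 and 55.2, and LBR 49.5 and 24.5. The 3 higher in ovary were NSDHL (37.8 against 9.15 FPKM), insig1 (22.2 against 7.16) and MVK (14.8 against 3.08). The 7 called for testis, chosen after their values were seen, included IDI1 (39 against 3.03 FPKM), MSMO1 (26.03 against 1.07), LSS (17.55 against 0.77) and HSD17B7 (13.9 against 0.78).

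Of 27 transcription regulators tied to lipoprotein genes, 18 reached 1 FPKM. Of these 18, 12 were called for testis and none for ovary (median 1.33), beside 45.1% and 16.6% of all genes at this level. NR2F2 had 37.1 FPKM in testis and 7.65 FPKM in ovary, RXRB 17.6 and 8.76, and srebf2 12.8 and 14.1. The liver X receptor gene NR1H3, which activates apoE and apoC genes in mammalian macrophages, read 7.71 and 3.17 FPKM. The hepatic regulator HNF4A read 0.60 and 0.16 FPKM and foxa3 0.59 FPKM in testis with the smallest value in ovary. NR1H3, HNF4A and foxa3 were chosen after their values were seen.

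**Figure D4:**
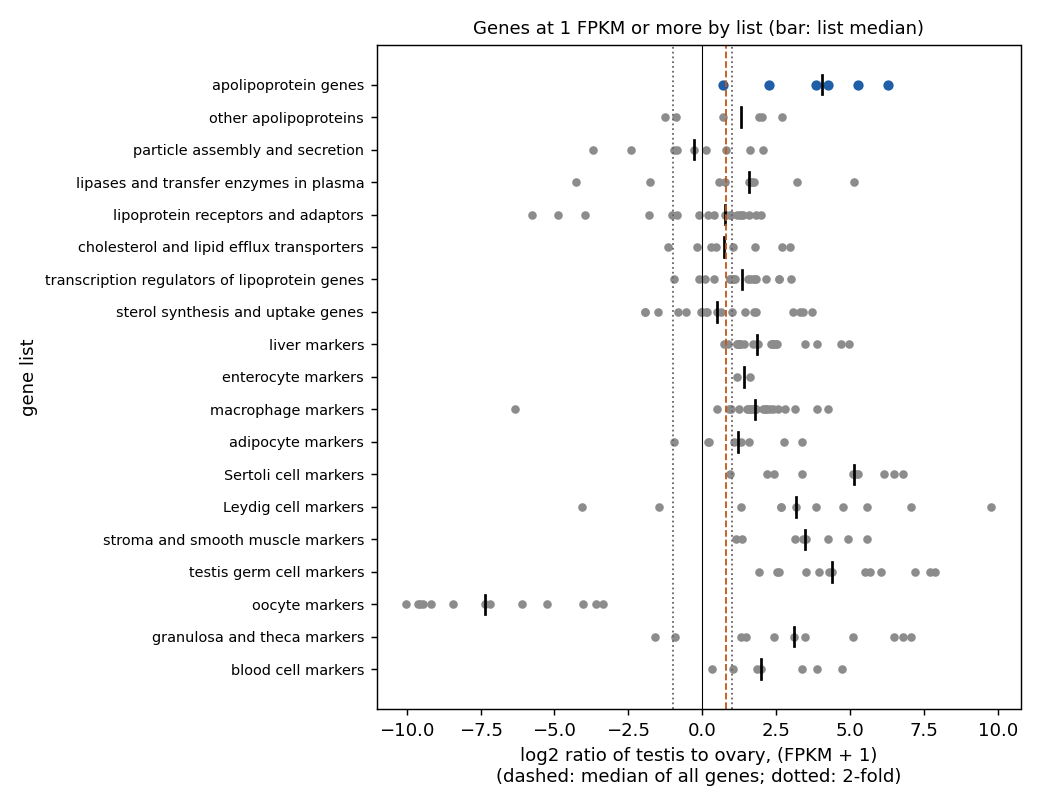
Log2 ratio of testis to ovary, on the log2(FPKM + 1) scale, for each gene that reached 1 FPKM, with the apolipoprotein genes in blue, genes of the other lists in grey, a bar at each list's median and a dashed line at the median of all genes, 0.80. The apolipoprotein genes run from 0.71 to 6.28, while the receptor, plasma enzyme and assembly lists reach far to the ovary side, to -5.77, -4.28 and -3.70; subtracting the overall median turns the lowest apolipoprotein gene, apoea, negative.

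Oocyte and testis germ cell markers matched the organ labels, whereas most genes of the follicle list were higher in testis. All 13 measured oocyte markers were called higher in ovary, with a summed level of 19495 FPKM there and 97.1 in testis, and all 13 testis germ cell markers were higher in testis, with sums of 3524 and 197 FPKM. Of 11 genes in the follicle list of granulosa and theca cells, 9 were higher in testis. The aromatase gene CYP19A1 (2.04 FPKM, smallest value in testis) was the 1 higher in ovary. Of all genes at 1 FPKM or more, 45.1% were called for testis and 16.6% for ovary. The follicle list shares genes with the Sertoli and Leydig lists.

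Markers of several somatic cell types that could hold apolipoprotein RNA were also higher in testis. Of 33 measured liver markers, 22 reached 1 FPKM. Of these 22, 20 were called for testis and none for ovary, beside 45.1% and 16.6% of all genes at this level. Levels of the 33 summed to 252 FPKM in testis and 10.1 FPKM in ovary, of which RBP4 alone was 121 and 2.92. The gene ahsg1 was at 29.99 and 0.21 FPKM, fabp10a, the liver fatty acid binding protein gene, at 19.7 and 0.39, and tfa at 10.7 and 1.09. None of the liver markers was at the smallest value in testis and 7 were in ovary. The levels of apoa1b (24.6 FPKM) and apoa2 (15.5) in testis were of the order of fabp10a and ahsg1. Other liver markers were lower there, such as fga at 3.13 and gc at 0.19 FPKM, chosen after their values were seen. Of the 33, 11 did not reach 1 FPKM in either library. In testis apoeb and apoc1 stood above every measured liver marker. The part of liver RNA in these values was not tested.

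Macrophage markers followed the same side. Of 27 measured, 26 reached 1 FPKM. Of these 26, 22 were called for testis and 1 for ovary (median 1.79), beside 45.1% and 16.6% of all genes at this level. Summed levels were 328 FPKM in testis and 829 in ovary, the latter carried by ctss2.1, at 8.91 FPKM in testis and 799.8 FPKM in ovary. The antigen presentation gene cd74a read 118 and 5.21 FPKM, cd74b 49.9 and 2.42, and grna.1 29.2 and 5.99. One macrophage marker, ccl34b.1, was at the smallest value in ovary and none in testis. Their part in the levels of apoeb and apoc1 was not tested.

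Among the other lists, 9 of 10 Sertoli cell markers were called higher in testis (summed levels 1611 and 19.3 FPKM), led by gsdf at 835 and 6.62 FPKM, krt18a.1 at 206 and 4.65, DMRT1 at 161 and 1.30 and amh at 160 and 0.80. Of 11 Leydig cell markers 9 were higher in testis and 2 in ovary, namely fdx1 (178 against 63.3 FPKM) and hsd3b2 (51.6 against 2.12); the list summed to 6169 and 281 FPKM. All 8 stroma and smooth muscle markers at 1 FPKM or more were higher in testis (546 and 19.1 FPKM over the 9 measured). So were 6 of 7 blood cell markers (227 and 19.7 FPKM). The shares of all genes at 1 FPKM or more, to set beside these counts, were 45.1% for testis and 16.6% for ovary. Of 11 measured adipocyte markers, 8 reached 1 FPKM. Of these 8, 5 were called for testis and none for ovary, beside 45.1% and 16.6% of all genes at this level. The 11 summed to 200.3 FPKM in testis and 32.8 in ovary, of which fabp4a was 167 and 23.9. Enterocyte markers were low. Of these, 2 of 10 reached 1 FPKM, and the sums were 9.24 FPKM in testis and 2.18 in ovary, with FABP2 (chosen after its values were seen) at 0.29 FPKM and the smallest value. No Sertoli, Leydig, stroma or blood marker was at the smallest value in either library. The part of each of these cell types in the apolipoprotein levels was not tested.

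The size of the log2 ratios moved least with the pseudocount for apoeb. With a pseudocount of 0.1 or 5 in place of 1, apoeb gave 5.33 and 4.98, and apoc1 6.70 and 5.19. The same settings gave 5.84 and 2.47 for apoa1b, 5.97 and 1.995 for apoa2, and 4.02 and 0.91 for apoa1a. A pseudocount of 5 thus put apoa1a under 2-fold, and one of 0.1 put apoea over it, at 1.51. Calls for testis numbered 6 with a pseudocount of 0.1 (50.2% of all genes), 4 with one of 5 (23%), 4 with a minimum of 5 FPKM (40.2%) and 5 with no minimum (35%) or the 4-fold rule (21.6%). They also numbered 5 after the trimmed mean scaling (27% of all genes, with 28.6% called for ovary) and after rescaling without the most abundant genes (44.2%). The calls of apoeb, apoc1, apoa1b and apoa2 held under all 5 of the pseudocounts and scalings tried.

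**Figure D5:**
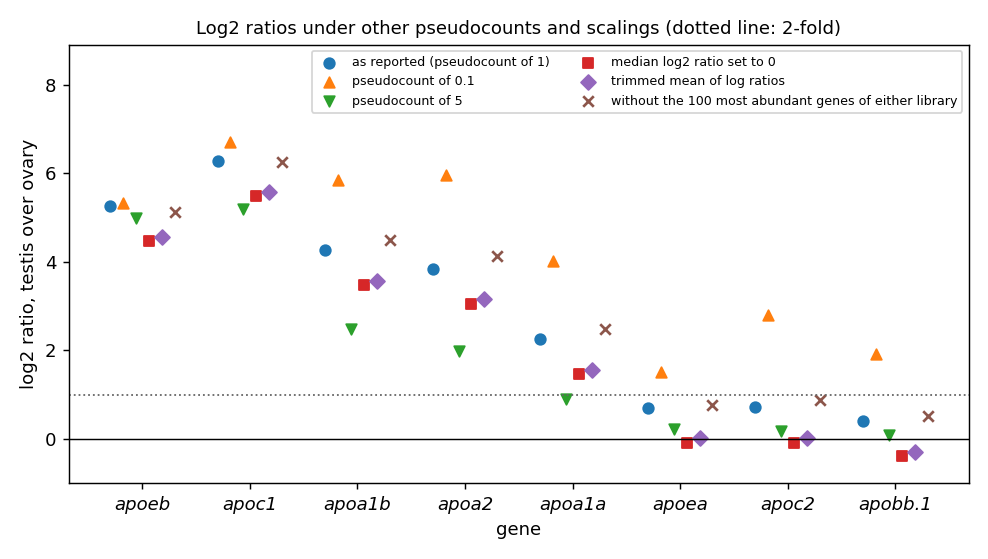
Log2 ratio of testis to ovary for each apolipoprotein gene as reported and under 2 other pseudocounts and 3 rescalings, with a dotted line at 2-fold. The points of apoeb lie between 4.46 and 5.33 and those of apoc1 between 5.19 and 6.70, whereas those of apoea, apoc2 and apobb.1 cross 0 when the overall median is set to 0.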

How the data were processed

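RNA sequencing of 1 testis and 1 ovary library, each a pool of 3 adult wild-type zebrafish, followed BGISEQ-500 protocols, per the labels. The authors deposited FPKM for 24539 Ensembl genes, with 2 decimals and a smallest value of 0.01, which was read as standing for 0. The submitters' processing notes name HISAT, Bowtie2, RSEM and the build GRCz10; for versions, strand handling and annotation, nothing is stated in the labels or headers. Column totals were 562394 FPKM in testis and 572635 in ovary. Read counts were not used and absolute depth is unknown, so no counting interval is given. Ratios of low values were matched to steps of 1 to 1, 2 to 1 and 3 to 1. The best match put the FPKM worth of 1 read in testis at 1.09 times that in ovary. It placed 192 of 1205 low genes on the steps, beside a median of 70 over the values tried, so 1.09 is a rough figure. The processing notes name RSEM but do not state how reads were divided among near-identical paralogues.

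Symbols came from a gene name table (21881 genes named). Lists were matched on the symbol, or else on a single synonym in the RefSeq table of GRCz12tu. Symbols on several identifiers were left out. Of 365 symbols written in 18 lists, the unmatched are not reported. The log2 ratio is the difference, testis minus ovary, of log2(FPKM + 1). A call needed 2-fold and 1 FPKM. Named genes are the members, the matched other apolipoproteins, of each list the 4 most abundant and those called higher in ovary, and the 5 nearest genes to 3 members. Many of the marker genes that this selects are given only within their list's counts and sums, and some genes are not reported here. The Python 3.11.15 calculations (numpy 2.4.6, pandas 2.3.3) of the scalings and calls were tested on simulated data. The members and lists were chosen with earlier results of these data known. Other settings tried were a pseudocount of 0.1 or 5, a minimum of 5 FPKM or none, a 4-fold rule and 3 rescalings (median ratio set to 0, a trimmed mean of log ratios with 30% of ratios and 5% of abundances cut at each end, and totals that leave out the top 100 genes of each library, 186 in all).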

Additional observations from a re-analysis of the deposited data

How the results depend on the processing

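The count of apolipoprotein genes called higher in testis, 5 as reported, ranged from 4 to 6 over the alternatives tried, and none was called higher in ovary. Their median log2 ratio, 4.06 as reported, was 3.26 with the median of all genes set to 0, 3.36 with the trimmed mean, 4.32 when rescaled without the most abundant genes, 5.59 and 2.23 with pseudocounts of 0.1 and 5, 3.05 with no minimum and 4.76 with a minimum of 5 FPKM. The last 2 settings change which members enter, 8 and 4 in place of 6. Over all genes, 8587 were called higher in testis as reported, 4777 with the median set to 0, 4375 with a pseudocount of 5, 5135 after trimmed mean scaling, 5331 with a minimum of 5 FPKM and 4106 with the 4-fold rule. Genes called higher in ovary numbered 3162 as reported, 5779 with the median set to 0 and 5443 with the trimmed mean. The medians of some lists changed sign between settings. Setting the overall median to 0 took 0.7986 off every log2 ratio, and the trimmed mean took off 0.6968. The minimum settings changed which genes entered each median. With the overall median set to 0, efflux (-0.0598), receptors (-0.0168) and sterol synthesis (-0.29) changed sign. Sterol synthesis also did so with the trimmed mean (-0.19). With a minimum of 5 FPKM, receptors (-0.12) and other apolipoproteins (-0.89, on 3 genes) changed sign, and with no minimum particle assembly (0.21) did. No paired analysis was possible because each organ has 1 library. With unknown depth and 2 decimals, values near 0.01 FPKM, such as apoc2 and apobb.1 in ovary, cannot show the size of a difference. The ovary values of apoa1b, apoa2 and apoa1a, 0.15 to 0.33 FPKM, are also low, and the counting error of their ratios is unknown.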

Other observations

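The levels of the apolipoprotein genes were set beside single marker genes within each library, with the markers chosen after their values were seen. The level of apoeb was 35.6 times that of the liver gene fabp10a in testis and 44.3 times in ovary. Against another liver gene, ahsg1, it was 23.35 times in testis and 82.3 times in ovary. Against the smooth muscle gene acta2 the level of apoeb was 3.56 and 3.13 times. It was 5.92 and 3.32 times that of the antigen presentation gene cd74a. Against the Sertoli cell gene gsdf it was 0.839 times in testis and 2.61 times in ovary, and against the Leydig cell gene insl3 0.134 and 3.47 times. For apoc1 the ratio to gsdf was 0.323 in testis and 0.376 in ovary, that to cd74a 2.28 and 0.478, and that to fabp10a 13.7 and 6.39. For apoa1b the ratio to fabp10a was 1.25 in testis and 0.846 in ovary, and for apoa2 it was 0.79 and 0.385. The ratio to ahsg1 was 8.98 in testis and 11.9 in ovary for apoc1, 0.82 and 1.57 for apoa1b, and 0.518 and 0.714 for apoa2. From testis to ovary, the ratios of apoc1, apoa1b and apoa2 to fabp10a thus fell, while those to ahsg1 rose. The ratios of apoeb to both markers rose. These directions only restate the plain ratios of testis to ovary, which were 50.4 for fabp10a and 142.8 for ahsg1. In ovary the markers are low, from 0.21 FPKM for ahsg1 to 6.62 FPKM for gsdf, and with 1 library per organ these ratios have no error.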
